A study of Mus musculus with 18 samples.

Results

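The D-type cyclins, their kinase partners and the inhibitors of those kinases were followed in cultured mouse ovarian follicles. The 9 genes were Ccnd1, Ccnd2, Ccnd3, Cdk4, Cdk6, Cdkn1a, Cdkn1b, Cdkn1c and Cdkn2c. They are 9 of the genes genes to which the annotation of the Affymetrix mouse genome array gives at least 1 probe set of that symbol alone, and their 25 probe sets of this kind, of 45101 on the array, were all taken. Of these, 23 passed the filter on low signal (the upper 50% of probe sets by mean log2 signal) and were tested, and both that did not belong to Ccnd3. Ccnd2 had 7 probe sets, Ccnd1, Ccnd3, Cdk4 and Cdk6 had 3 each, Cdkn1a and Cdkn1b had 2 each, and Cdkn1c and Cdkn2c had 1 each. All 22518 tested probe sets of the array served as the background to counts of member probe sets, except where stated.

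Preantral and small antral follicles of C57BL/6Ntac mice aged 6 to 8 weeks were pooled from 7 animals, and each pool was divided over drop cultures, with vehicle or with recombinant AMH at 50 or 200 ng/mL. AMH, anti-Müllerian hormone, belongs to the TGF-beta family and is made by granulosa cells. All cultures, the vehicle ones included, also received 80 IU/L FSH and 10 IU/L LH. The labels list 3 experiments of 24 h and 3 of 12 h, each with 1 array per dose, which gave 6 groups of 3 arrays. They call samples comparable inside an experiment, so the comparisons of times cross experiments, and they do not state whether same-numbered experiments of 24 h and 12 h shared animals. RNA was amplified from 5 ng. A replicate is thus a separate pool of several animals, and the RNA is that of whole follicles, in which fewer cells of a type and less RNA per cell cannot be told apart. The description field of the AMH samples of 12 h reads 24 h, whereas their titles and sources read 12 h, and 12 h was used.

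D cyclins bind the kinases CDK4 and CDK6, and the complexes phosphorylate the retinoblastoma protein and so release E2F factors at the start of the cell cycle. The INK4 proteins, such as p18 from Cdkn2c, bind CDK4 and CDK6 and keep the cyclin away. The CIP/KIP proteins p21, p27 and p57, from Cdkn1a, Cdkn1b and Cdkn1c, bind complete cyclin and kinase complexes and above all restrain those of CDK2. In the mouse ovary, cyclin D2 is the D cyclin through which FSH drives granulosa cell division, and p27 restrains follicle growth and is needed when granulosa cells leave the cycle.

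Replicate 3 of the 12 h cultures with AMH 50 ng/mL gave an array that stood apart. Its Pearson correlation with the other arrays, on log2(signal + 16) over probe sets, was 0.604 to 0.624, against 0.904 to 0.992 among the other 17 (median 0.972). Its hybridisation controls averaged 35724, against 1724 to 4237 in the others. This array was left out of all comparisons below, except where it is said to be included, and its values are given apart. It did count in the mean signal by which the filter chose probe sets. The array of AMH 200 ng/mL at 12 h in replicate 3 had poly-A controls of 5494, against at most 1634 in the 16 arrays that remain, and a median correlation of 0.920 against at least 0.961. It stayed in, and results that rest on it are given without it where that matters. The number of arrays limits the precision of every value.

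Cdkn1b, which encodes p27, was the one member with differences past the threshold, and those were between the times of culture. The 300 bases around its start site (250 before and 50 after, RefSeq, GRCm38.p6, chr6:134920151-134920450, plus strand) are shown for that reason, and those around the downstream of 2 RefSeq starts of Cdkn1a, another CIP/KIP gene with estimates in the opposite direction, for comparison (chr17:29093519-29093818, plus strand). Capitals mark matches to the motifs searched.

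Cdkn1b: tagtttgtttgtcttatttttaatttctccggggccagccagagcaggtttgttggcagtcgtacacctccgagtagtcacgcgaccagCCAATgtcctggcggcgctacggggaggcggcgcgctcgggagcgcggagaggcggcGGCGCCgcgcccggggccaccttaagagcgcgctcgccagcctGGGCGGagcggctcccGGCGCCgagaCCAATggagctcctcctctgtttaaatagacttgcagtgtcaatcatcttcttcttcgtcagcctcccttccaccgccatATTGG

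Cdkn1a: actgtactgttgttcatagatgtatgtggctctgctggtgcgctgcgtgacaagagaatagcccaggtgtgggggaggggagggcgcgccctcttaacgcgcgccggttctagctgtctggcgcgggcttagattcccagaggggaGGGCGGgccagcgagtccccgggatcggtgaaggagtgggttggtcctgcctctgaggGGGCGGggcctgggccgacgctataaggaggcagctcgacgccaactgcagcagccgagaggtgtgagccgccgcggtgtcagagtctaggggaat

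The motifs were searched on both strands: the GC box GGGCGG, the CCAAT box CCAAT, the E2F site TTTCCCGC, the forkhead site GTAAACA, the cAMP response element TGACGTCA, the BMP SMAD site GGCGCC and the TATA box TATAAA. In the Cdkn1b window the GC box lay 61 bases before the start, CCAAT 161 and 35 bases before it and, on the other strand, 46 bases after it, and GGCGCC 104 and 45 bases before it. Among 32851 mouse promoter windows of the same length, 35.7% held a GC box, 37.4% CCAAT and 11.9% GGCGCC, while the E2F site was in 1.07%, the forkhead site in 3.65%, the cAMP response element in 1.79% and the TATA box in 13.6%. The Cdkn1a window held the GC box 104 and 46 bases before the start and no other motif of the set, and the window of the upstream Cdkn1a start held none. The GC content was 62.0% for Cdkn1b and 64.7% for the Cdkn1a window shown, against a median of 52.7% over all windows. No overlap between motif matches occurred in either sequence, and a match is a string of letters, not a bound site. Promoter windows were found for 6 of the 9 genes.

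Comparing 24 h with 12 h of culture showed how the members stood later in culture, first without AMH and then at each dose. Cdkn1b was higher at 24 h in all groups by both probe sets, and passed the threshold with AMH 50 and AMH 200 ng/mL but not in vehicle. By probe set 1419497_at its signal in vehicle was 1750.3, 1881 and 1245 at 24 h, against 1002, 501 and 750 at 12 h. With AMH 50 ng/mL it was 2317, 1753 and 1833 at 24 h, against 1057 and 700.0 at 12 h. With AMH 200 ng/mL it was 1726, 1743 and 1760.0 at 24 h, against 757, 406 and 415 at 12 h. All 9 arrays of 24 h lay above all 8 arrays of 12 h, a separation found in 5.11% of the tested probe sets in this direction. The log2 difference of 24 h minus 12 h was 1.13 in vehicle (SE 0.26, limma adjusted p = 0.0737), 1.17 with AMH 50 ng/mL (SE 0.22, limma adjusted p = 0.0121) and 1.76 with AMH 200 ng/mL (SE 0.24, limma adjusted p = 0.0140).

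The second Cdkn1b probe set, 1434045_at, gave 1918, 2191 and 1328 in vehicle at 24 h, against 1382, 1020.0 and 699.9 at 12 h. At 50 ng/mL of AMH it gave 2539, 1626 and 2068 at 24 h, against 755 and 1173 at 12 h. At 200 ng/mL of AMH it gave 2083, 1702 and 1980 at 24 h, against 1004, 957 and 867 at 12 h. Both AMH doses separated completely by time, as did 20.7% of all tested probe sets in this direction with AMH 50 ng/mL and 21.2% with AMH 200 ng/mL, whereas the lowest vehicle array of 24 h lay just under the highest of 12 h. The log2 differences were 0.82 in vehicle (SE 0.27, limma adjusted p = 0.155), 1.10 with AMH 50 ng/mL (SE 0.25, limma adjusted p = 0.0240) and 1.01 with AMH 200 ng/mL (SE 0.16, limma adjusted p = 0.0201). Over the 17 arrays both probe sets correlated with r = 0.842, as a description of arrays that share pools and split by time, and with r = 0.90 within the 9 arrays of 24 h but 0.0862 within the 8 of 12 h. In order of mean, this probe set ran from AMH 50 ng/mL at 24 h (2078 ± 457, SD, n = 3) through AMH 200 ng/mL (1922 ± 197) and vehicle (1813 ± 441) at 24 h to vehicle (1034 ± 341), AMH 50 (964 ± 296, n = 2) and AMH 200 ng/mL (943 ± 69.5) at 12 h. Neighbours in this order differed by less than their SD, except for the step between the times, where vehicle means differed by more than either SD.

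With vehicle, 0 of 23 member probe sets passed in limma (7 at an unadjusted p under 0.05), beside 1.3% of all tested probe sets (292 of 22518, 4180 unadjusted), of which 0.879% of all were higher at 24 h. With replicate numbers as a block in vehicle, 642 probe sets passed, among them Cdkn1b 1434045_at (log2 difference 0.82, SE 0.15, adjusted p = 0.0429). With AMH 200 ng/mL, 2 of 23 passed, both of Cdkn1b and both higher at 24 h, beside 3.91% of all probe sets in either direction (881) and 2.64% higher. With AMH 50 ng/mL, the same 2 of 23 passed, beside 7.59% of all probe sets in either direction (1709), 4.7% higher and 2.89% lower. The comparisons within the AMH doses were added after the data had been seen. Each experiment as listed held 1 time. With the pool of each experiment as a random block over 17 arrays, 1419497_at had an adjusted p of 0.0193 in vehicle, 0.0237 with AMH 50 ng/mL and 0.00034 with AMH 200 ng/mL.

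Calls of Cdkn1b rested on few arrays. Under AMH 200 ng/mL both calls were lost without any 1 of the 24 h arrays (adjusted p = 0.0730 to 0.106 for 1419497_at and 0.0738 to 0.156 for 1434045_at), and that of 1434045_at also without the 12 h array of replicate 1 (0.0577), while the log2 differences stayed between 1.75 and 1.77 and between 0.95 and 1.10. Under AMH 50 ng/mL the call of 1419497_at was lost without the 12 h array of replicate 2 (0.109), and that of 1434045_at without the 24 h array of replicate 1 (0.0777) or 3 (0.0610) or the 12 h array of replicate 1 (0.149). Without either of these 12 h arrays that group held 1 array, which was assumed to vary like those of 24 h. In vehicle 1419497_at passed without the 12 h array of replicate 1 (0.0491). The array that stood apart read 5636 for 1419497_at and 383 for 1434045_at, in opposite directions from the other arrays of its group, and with it the AMH 50 differences were 0.27 (SE 0.80) and 1.53 (SE 0.52), with 0 of 23 members and 0 of all probe sets passing.

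**Figure D1:**
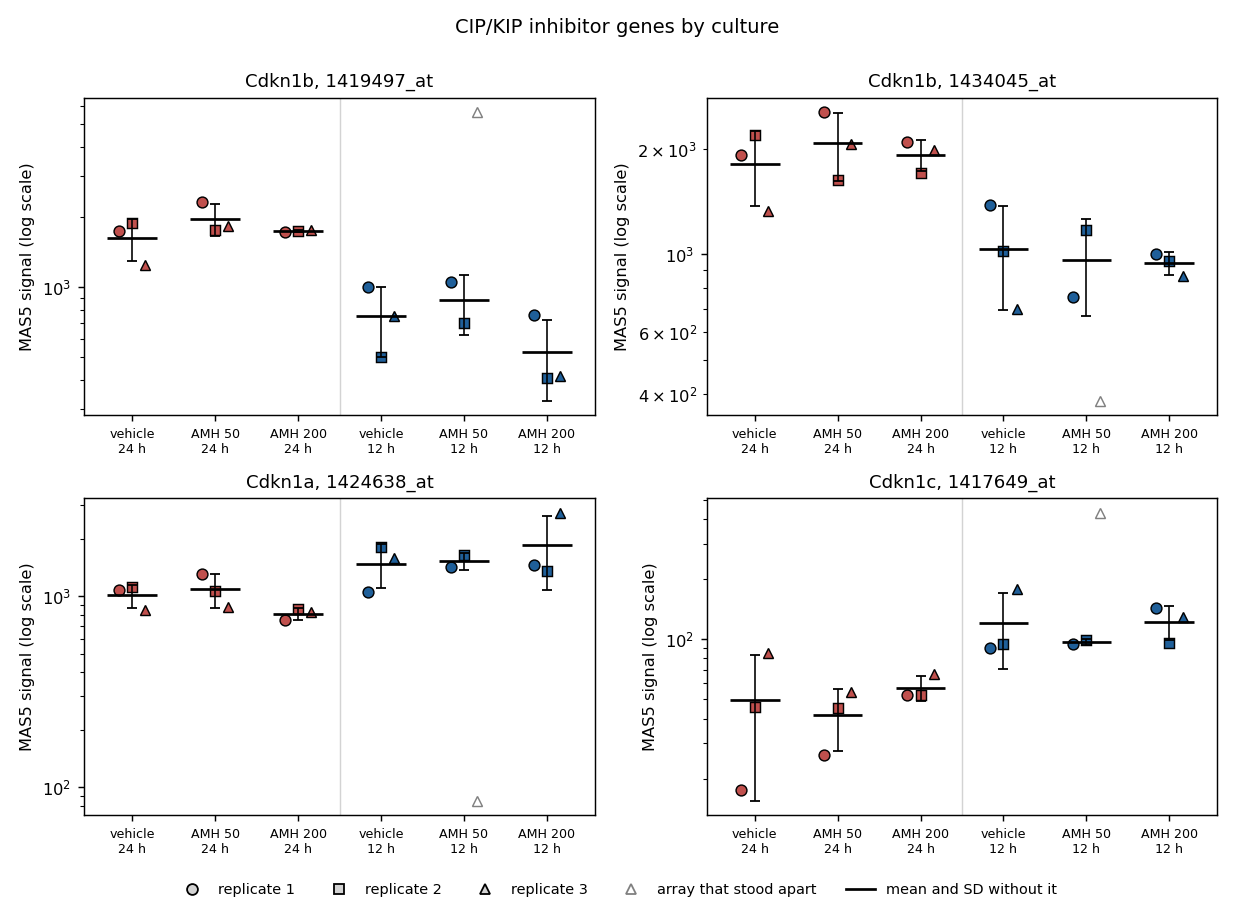
MAS5 signal (log axis) of the CIP/KIP genes in each culture, by dose and time, with the mean and SD of each group without the array that stood apart (open grey triangle). All 9 arrays of 24 h lie above all 8 of 12 h for Cdkn1b 1419497_at, and all below them for Cdkn1c.

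The time differences of Cdkn1b did not differ between doses past the threshold. For 1419497_at the difference between AMH 200 ng/mL and vehicle in their time effect was 0.63 (SE 0.23, unadjusted p = 0.0159, limma adjusted p = 0.628), and for AMH 50 ng/mL it was 0.09 (SE 0.25, limma adjusted p = 0.999). Without the AMH 200 array of 12 h in replicate 3, the first of these was 0.47 (SE 0.23). For 1434045_at they were 0.19 (SE 0.32) and 0.44 (SE 0.35), and both 95% intervals included 0.

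Cdkn1a, which encodes the p53-induced inhibitor p21, had lower estimates at 24 h, none past the threshold. By 1424638_at the signal in vehicle was 1071, 1111 and 850.5 at 24 h, against 1057, 1805 and 1581 at 12 h. With AMH 50 ng/mL it was 1314, 1061.5 and 881 at 24 h, against 1413 and 1644 at 12 h. With AMH 200 ng/mL it was 747, 857 and 828 at 24 h, against 1451, 1358.5 and 2733 at 12 h. Times overlapped in vehicle and did not overlap at either AMH dose, a separation in this direction of 18.5% of all tested probe sets with AMH 50 ng/mL and 13.8% with AMH 200 ng/mL. The log2 differences were -0.52 in vehicle (SE 0.21, limma adjusted p = 0.237), -0.50 with AMH 50 ng/mL (SE 0.20, limma adjusted p = 0.171) and -1.10 with AMH 200 ng/mL (SE 0.26, limma adjusted p = 0.0577). The last passed in 7 of its alternatives, among them without the 12 h array of replicate 3, at -0.78 (adjusted p = 0.00857), or of replicate 2, at -1.28 (adjusted p = 0.0407). The other Cdkn1a probe set, 1421679_a_at, differed by -0.15, -0.43 and -0.62 in the same order of doses and correlated with 1424638_at at r = 0.563 over 17 arrays. Its times overlapped at every dose. Its AMH 200 difference passed without the 12 h array of replicate 2, at -1.15 (adjusted p = 0.0341). The array that stood apart read 84.8 for 1424638_at.

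Cdkn1c, which encodes p57, had 1 probe set, with signals of 17.5 to 84.9 at 24 h, beside array medians of 18.1 to 36.6. In vehicle it read 17.5, 45.6 and 84.9 at 24 h, against 89.7, 94.4 and 179 at 12 h. At 50 ng/mL of AMH it read 26.1, 45.0 and 54.4 at 24 h, against 94.3 and 98.9 at 12 h. At 200 ng/mL of AMH it read 52.3, 52.7 and 66.6 at 24 h, against 142, 95.9 and 128 at 12 h. Every array of 24 h lay below every array of 12 h, a separation in this direction of 2.93% of the tested probe sets. The log2 differences were -1.15 in vehicle (SE 0.41, limma adjusted p = 0.193), -0.99 with AMH 50 ng/mL (SE 0.27, limma adjusted p = 0.0552) and -0.91 with AMH 200 ng/mL (SE 0.27, limma adjusted p = 0.0970), so that none passed. The AMH 50 difference passed in 4 of its alternatives (adjusted p = 0.0204 to 0.0478). The AMH 200 difference passed in 2, with array weights (adjusted p = 0.0182) and without the 12 h array of replicate 3, at -0.87 (adjusted p = 0.0447). The array that stood apart read 429.

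Cdk6, a kinase partner of the D cyclins, had higher estimates at 24 h in vehicle by all 3 probe sets, none of them past the threshold. By 1435338_at it read 157.4, 156.8 and 156.6 in vehicle at 24 h, against 91.1, 90.0 and 143 at 12 h. By 1455287_at it read 194, 143 and 130.3 in vehicle at 24 h, against 97.3, 77.8 and 83.0 at 12 h. For both probe sets the vehicle groups did not overlap, as for 13.5% of all tested probe sets in this direction. The log2 differences in vehicle were 0.51 (SE 0.22), 0.74 (SE 0.22) and, by 1460291_at, 0.56 (SE 0.25), with limma adjusted p of 0.265, 0.127 and 0.269. Under AMH 200 ng/mL they were 0.46, 0.42 and 0.30, and with AMH 50 ng/mL 0.42, -0.25 and -0.21, so that the probe sets differed in sign at the lower dose. Correlations among the 3 probe sets over 17 arrays ran from 0.411 to 0.851.

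**Figure D2:**
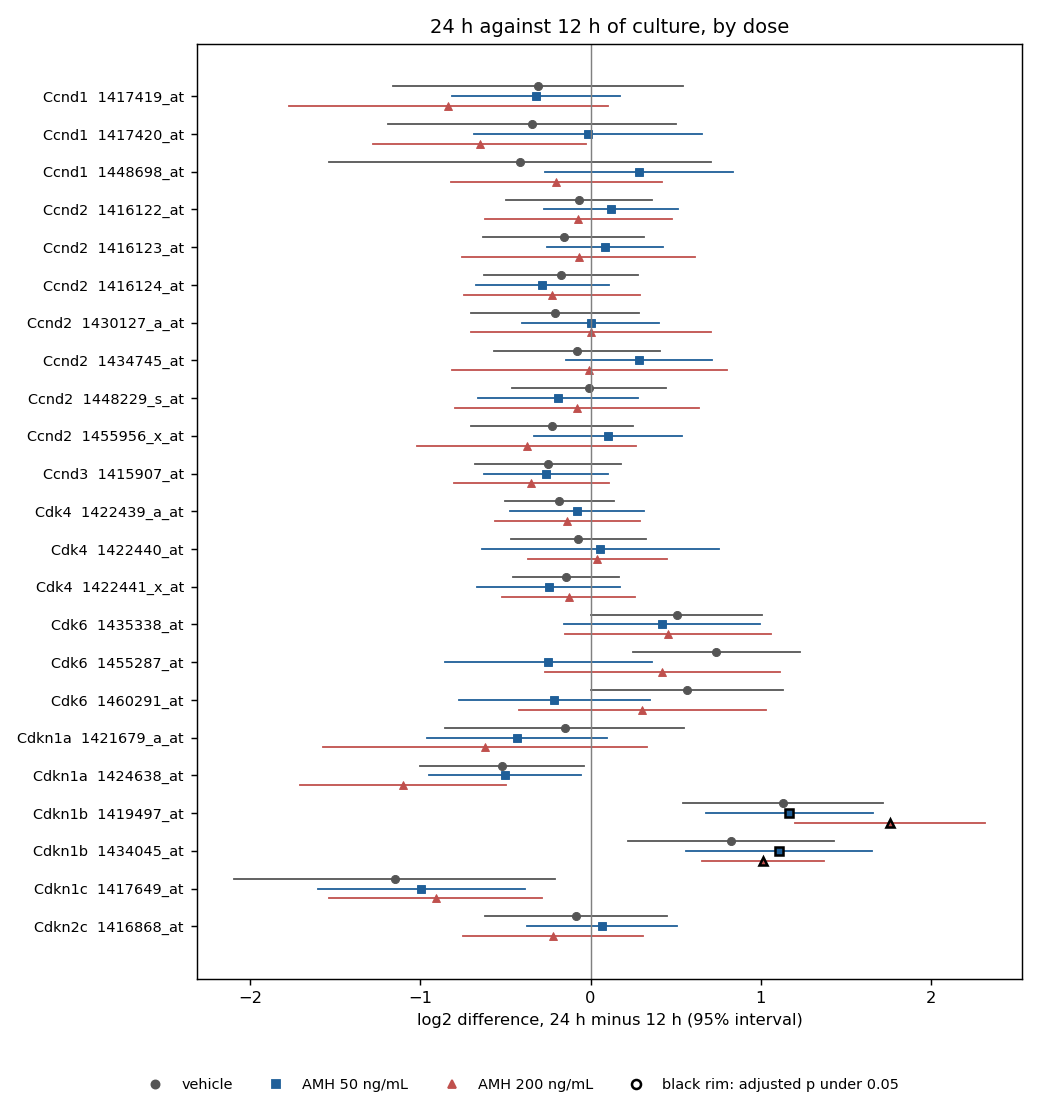
Log2 difference of 24 h minus 12 h for the 23 tested probe sets in vehicle, AMH 50 and AMH 200 ng/mL, with 95% intervals, and a black rim where the limma adjusted p was under 0.05. Black rims appear on Cdkn1b alone, at both AMH doses.

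The D cyclins had no difference past the threshold in time at any dose. Ccnd2, by 1416124_at, read 519, 867 and 605 in vehicle at 24 h, against 664, 787 and 750.0 at 12 h. Under AMH 50 ng/mL it read 841, 634 and 736 at 24 h, against 822 and 971 at 12 h. With AMH 200 ng/mL it read 936, 723 and 518 at 24 h, against 827, 765 and 896 at 12 h. The times overlapped at each dose, and over its 7 probe sets the vehicle differences ran from -0.23 to -0.01, with 95% intervals that all included 0. Ccnd1, which growth factors induce in many cells, differed by -0.41, -0.34 and -0.31 in vehicle by its 3 probe sets. Its vehicle array of 12 h in replicate 3 read 415 by 1448698_at, against 93.9 and 105 in the other pools of that group. Its differences ran from -0.83 to -0.20 with AMH 200 ng/mL and from -0.32 to 0.28 with AMH 50 ng/mL. By 1417419_at, which averaged 20.8 with AMH 200 ng/mL at 24 h, near the array medians, the times did not overlap at either AMH dose. By 1417420_at they did not overlap with AMH 200 ng/mL. The shares of all probe sets are those given below for Ccnd3. Ccnd3 by 1415907_at differed by -0.25 in vehicle (SE 0.19), -0.26 with AMH 50 ng/mL (SE 0.16) and -0.35 with AMH 200 ng/mL (SE 0.20). Its times overlapped in vehicle and did not overlap at either AMH dose. Among all tested probe sets, 18.5% separated in this direction with AMH 50 ng/mL and 13.8% with AMH 200 ng/mL. The 2 Ccnd3 probe sets under the filter read between 0.4 and 56.7 over the 18 arrays.

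Cdk4 and Cdkn2c had no difference past the threshold between times. By 1422441_x_at Cdk4 averaged 1034 ± 102, 1091 ± 173 and 1080 ± 53.4 at 24 h with vehicle, AMH 50 and AMH 200 ng/mL (SD, n = 3 each). At 12 h it averaged 1144 ± 99.4 with vehicle, 1289 ± 146 with AMH 50 (n = 2) and 1191 ± 189 with AMH 200 ng/mL. Its vehicle time difference was -0.14, with a 95% interval of -0.46 to 0.17. The other Cdk4 probe sets had vehicle time differences of -0.18 (1422439_a_at, SE 0.14) and -0.07 (1422440_at, SE 0.17). By 1422439_a_at the signal lay between 822 and 1224 on the 17 arrays. By 1422440_at it read 234 and 609.7 in the AMH 50 cultures of 12 h, further apart than in any other group of that probe set, and it correlated with the others at no more than 0.301. Cdkn2c averaged 240 ± 47.6, 239 ± 43.0 and 216 ± 43.2 at 24 h in the same order of doses, and 258 ± 70.1, 226 ± 12.3 and 252 ± 28.4 at 12 h. Its vehicle time difference was -0.09, with a 95% interval of -0.62 to 0.45.

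**Figure D3:**
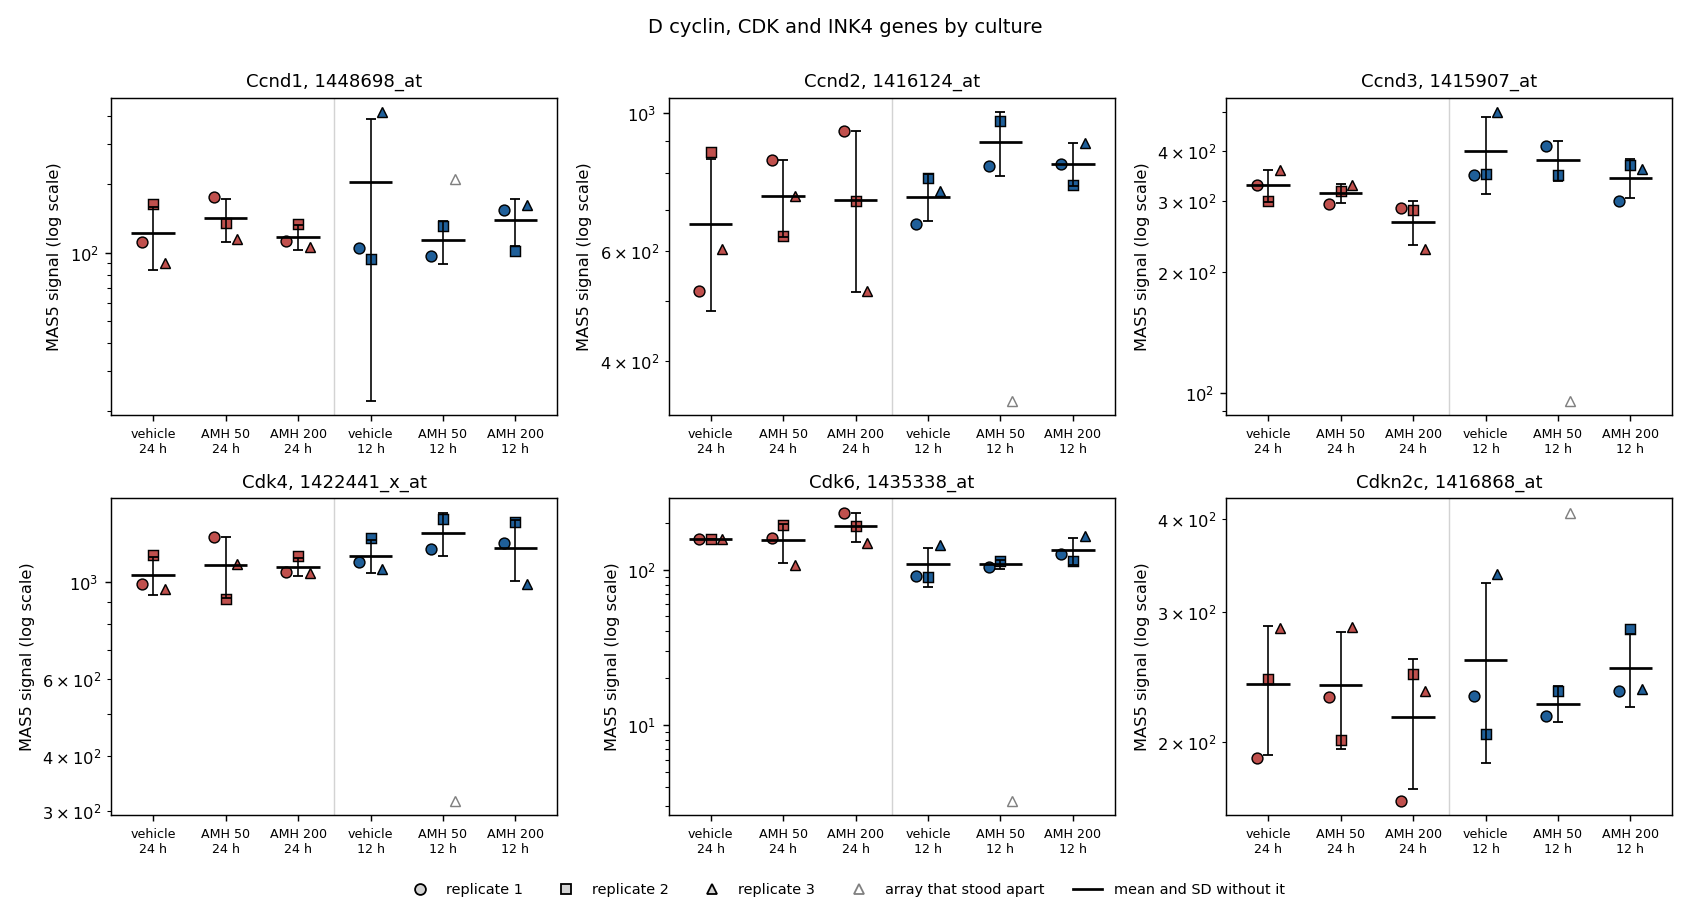
MAS5 signal (log axis) of 1 probe set each of Ccnd1, Ccnd2, Ccnd3, Cdk4, Cdk6 and Cdkn2c in each culture, by dose and time, with the mean and SD of each group without the array that stood apart (open grey triangle). The times overlap for Ccnd2, Cdk4 and Cdkn2c, and 1 vehicle array of 12 h stands at 415 for Ccnd1.

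Comparing AMH with vehicle within pools asked whether the hormone moved the members. Neither dose moved any of them past the threshold: 0 of 23 member probe sets passed in limma in each of the 9 comparisons of doses, beside 0 of 22518 (0%) in each. At an unadjusted p under 0.05, AMH 200 ng/mL against vehicle had 0 of 23 members at 24 h (374 of all probe sets) and 1 at 12 h (2565 of all), and AMH 50 ng/mL against vehicle had 0 at 24 h (607 of all) and 1 at 12 h (1285 of all). AMH 200 against AMH 50 ng/mL had 1 at 24 h (938 of all) and 2 at 12 h (1273 of all). The mean AMH 200 effect had 1 (767 of all), its difference between times 1 (1618 of all) and that of AMH 50 ng/mL 2 (733 of all).

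At 24 h the estimates for AMH 200 ng/mL minus vehicle ran from -0.31 to 0.30 over the 23 probe sets (median 0.02), with 95% intervals reaching 0.29 to 0.64 to either side. For AMH 50 ng/mL they ran from -0.45 to 0.28 (median 0.07). At 12 h they ran from -0.51 to 0.29 for AMH 200 ng/mL (median 0.08) and from -0.26 to 0.66 for AMH 50 ng/mL (median 0.05). Over all tested genes the medians were 0.01 and 0.00 at 24 h, and -0.07 and -0.04 at 12 h, for AMH 200 and AMH 50 ng/mL.

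**Figure D4:**
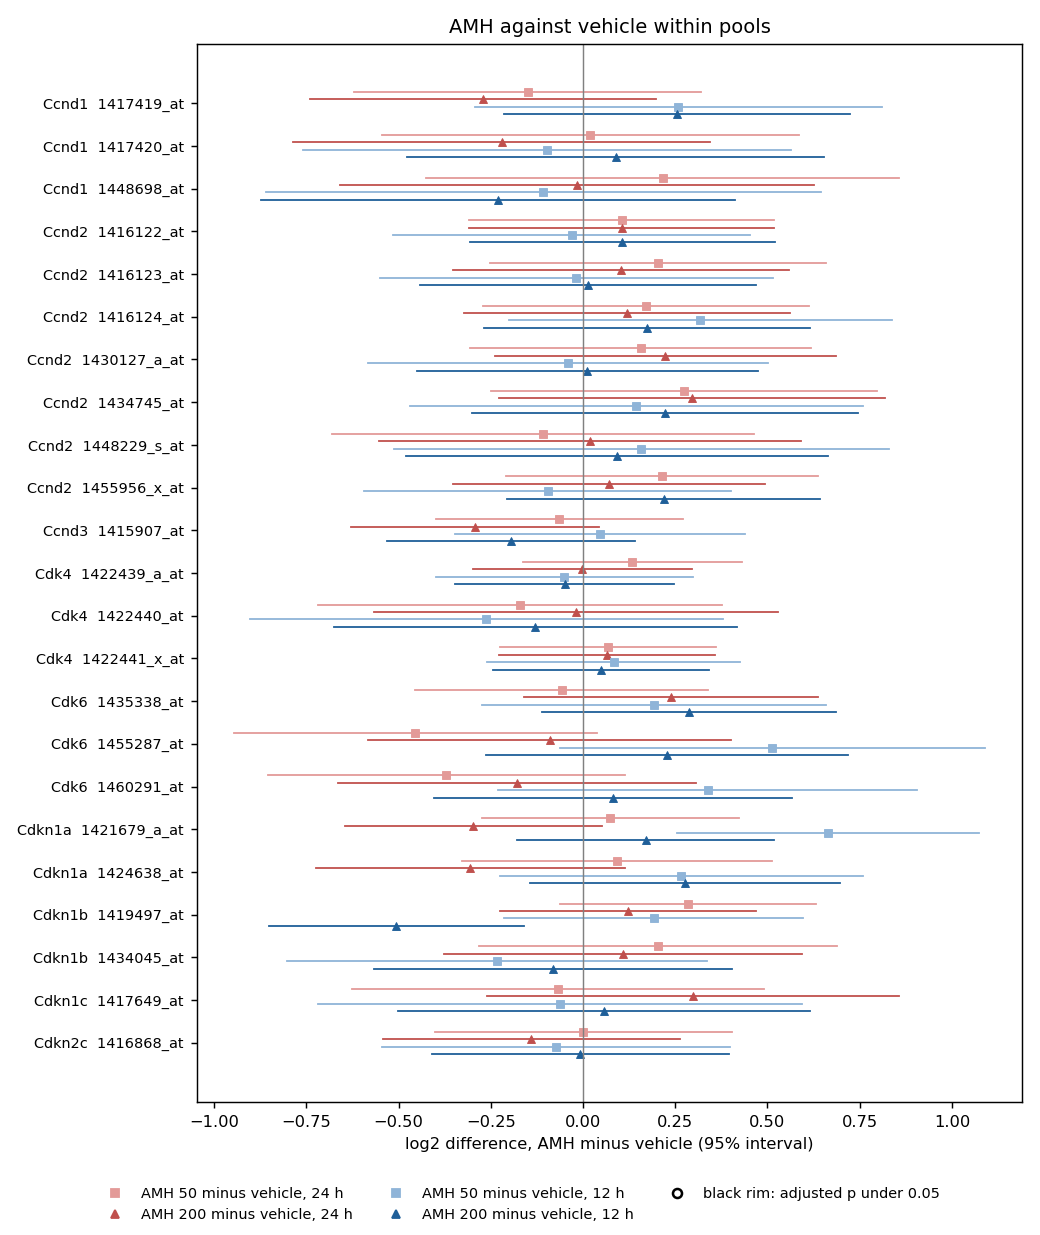
Log2 difference of AMH minus vehicle within pools for the 23 tested probe sets at each dose and time, with 95% intervals. No point has a black rim, which would mark a limma adjusted p under 0.05, and the intervals that leave out 0 are those of Cdkn1a 1421679_a_at with AMH 50 ng/mL and Cdkn1b 1419497_at with AMH 200 ng/mL, both at 12 h.

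Ccnd2, the cyclin tied to FSH, was 0.12 from vehicle with AMH 200 ng/mL at 24 h (95% interval -0.32 to 0.56) and 0.17 at 12 h (-0.27 to 0.62) by 1416124_at. The pools went different ways at 24 h, with 0.83, -0.26 and -0.22. For AMH 50 ng/mL the differences were 0.17 (-0.27 to 0.61) at 24 h and 0.32 (-0.20 to 0.84) at 12 h. Over the 7 Ccnd2 probe sets, read from the same arrays, those of AMH 200 ng/mL ran from 0.02 to 0.30 at 24 h and from 0.01 to 0.22 at 12 h. Those of AMH 50 ng/mL had both signs, from -0.11 to 0.27 at 24 h and from -0.10 to 0.32 at 12 h. All these 95% intervals included 0. Ccnd3 with AMH 200 ng/mL, averaged over both times, was -0.24 (SE 0.11, unadjusted p = 0.0449, limma adjusted p = 0.950), lower in 3 of 3 pools at 24 h and in 2 of 3 at 12 h. Without the AMH 200 array of 12 h in replicate 3 it was -0.18 (SE 0.11).

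Cdkn1b with AMH 200 ng/mL at 12 h was lower than vehicle in all 3 pools by 1419497_at, at -0.40, -0.29 and -0.83. The fitted difference was -0.51 (SE 0.16, unadjusted p = 0.0076, limma adjusted p = 0.432), in a comparison where 11.4% of all probe sets had an unadjusted p under 0.05. It was -0.34 (SE 0.18) without the array of AMH 200 ng/mL in replicate 3. The other probe set gave -0.08 (SE 0.22), with pools at -0.45, -0.09 and 0.30. Against AMH 50 ng/mL at 12 h the 1419497_at difference of AMH 200 ng/mL was -0.70 (SE 0.19, limma adjusted p = 0.656). At 24 h AMH 200 minus vehicle was 0.12 (SE 0.16) and 0.11 (SE 0.22) by the 2 probe sets.

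Cdkn1a with AMH 200 ng/mL at 24 h was lower than vehicle in all 3 pools by both probe sets, at -0.51, -0.37 and -0.04 by 1424638_at and -0.50, -0.30 and -0.09 by 1421679_a_at. The fitted differences were -0.31 (SE 0.19) and -0.30 (SE 0.16), both with an adjusted p that rounds to 1.00 in limma. At 12 h AMH 200 ng/mL went the other way, with differences from 0.17 to 0.28 over the 2 probe sets, higher in 2 of 3 pools by each. Averaged over both times the AMH 200 differences ran from -0.06 to -0.01. With AMH 50 ng/mL at 12 h, 1421679_a_at was 0.66 above vehicle (SE 0.19, unadjusted p = 0.0039, limma adjusted p = 0.862), higher in both pools used, whereas 1424638_at was at 0.27 (SE 0.23), higher in 1 of the 2. With the array that stood apart these became -0.01 (SE 0.41) and -1.24 (SE 0.77).

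Cdk6 with AMH 50 ng/mL was lower than vehicle in 3 of 3 pools at 24 h by 1455287_at, at -0.75, -0.06 and -0.56, and higher in both pools used at 12 h, at 0.08 and 0.94. The difference between the times was -0.97 (SE 0.35, unadjusted p = 0.0163, limma adjusted p = 0.999). By 1435338_at the AMH 50 differences were -0.06 (SE 0.18) at 24 h and 0.19 (SE 0.22) at 12 h. Cdkn1c with AMH 200 ng/mL was 0.30 from vehicle at 24 h (SE 0.26) and 0.06 at 12 h (SE 0.26).

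Genes downstream of and around the members were counted from fixed lists, 1 probe set a gene. Proliferation genes mostly had lower estimates at 24 h. In vehicle 18 of 18 had estimates below 0 (50.2% of all genes did), with a median of -0.80 against -0.00 over all genes, and none passed (13 at an unadjusted p under 0.05). At 50 ng/mL of AMH 18 of 18 were below 0 (median -1.12, all genes -0.02) and 13 fell past the threshold, among them the topoisomerase gene Top2a (-1.54, SE 0.22), the mitotic kinase genes Aurkb (-1.67, SE 0.26) and Aurka (-1.64, SE 0.26), and the proliferation marker gene Mki67 (-1.59, SE 0.26). At 200 ng/mL of AMH 17 of 18 were below 0 (median -0.77, all genes 0.07) and 2 fell, Pcna, the sliding clamp of DNA replication (-0.89, SE 0.17), and the replication helicase gene Mcm3 (-1.08, SE 0.24). In vehicle Pcna was at -0.67 (SE 0.14, limma adjusted p = 0.0615), Top2a at -1.04 (SE 0.22) and the mitotic kinase gene Cdk1 at -0.82 (SE 0.18). Of all tested probe sets, 2.89% were lower past the threshold with AMH 50 ng/mL and 1.27% with AMH 200 ng/mL. The difference between times in the AMH 50 effect against vehicle had a median of -0.07 over these genes, and that of AMH 200 ng/mL -0.03. Each was below 0 in 11 of 18, and none passed.

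**Figure D5:**
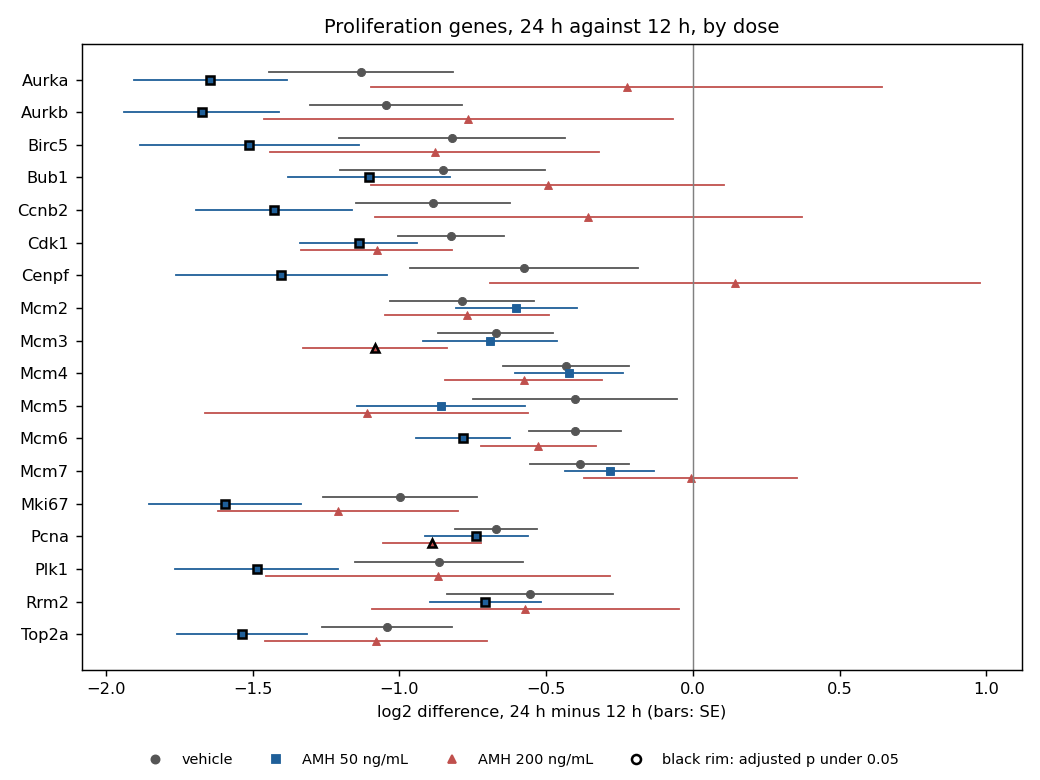
Log2 difference of 24 h minus 12 h for the 18 proliferation genes tested, in vehicle, AMH 50 and AMH 200 ng/mL, with bars of 1 SE, and a black rim where the limma adjusted p was under 0.05. All estimates lie below 0 in vehicle and AMH 50 ng/mL, and 13 genes have a black rim with AMH 50 ng/mL.

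Of 17 genes of the step from G1 to S phase, 12 were below 0 in vehicle (median -0.31) and none passed, with the E2F genes E2f6 at -0.74 (SE 0.16) and E2f8 at -1.08 (SE 0.27) closest. Under AMH 50 ng/mL 12 of 17 were below 0 (median -0.30) and Ccna2, which encodes the S phase cyclin A2, fell by 1.34 (SE 0.30, limma adjusted p = 0.0240). Under AMH 200 ng/mL 8 of 17 were below 0 (median 0.08) and none passed. Of 15 genes of cyclin D and p27 turnover and CDK activation, none passed in vehicle (11 below 0, median -0.06). With AMH 200 ng/mL 7 were below 0 (median 0.06) and 2 fell: Cks1b, the cofactor with which the SKP2 ubiquitin ligase recognises p27 (-0.80, SE 0.15), and its relative Cks2 (-0.83, SE 0.15). With AMH 50 ng/mL 8 were below 0 (median -0.02) and Cks2 fell by 0.79 (SE 0.19), while Cks1b was at -0.69 (SE 0.19, limma adjusted p = 0.0526).

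Of the other INK4 genes, Cdkn2b and Cdkn2d were tested. Cdkn2b, which encodes p15, fell by 1.37 with AMH 200 ng/mL (SE 0.30, limma adjusted p = 0.0467), and was at -0.90 in vehicle (SE 0.51) and -0.50 with AMH 50 ng/mL (SE 0.25). Cdkn2d was at 0.14 in vehicle (SE 0.31), -0.23 with AMH 50 (SE 0.23) and 0.09 with AMH 200 ng/mL (SE 0.52). Of 13 p53 targets besides Cdkn1a, 9 were below 0 in vehicle (median -0.25), 10 with AMH 50 ng/mL (median -0.41) and 9 with AMH 200 ng/mL (median -0.45). Those that passed went both ways. Perp, a membrane protein gene, fell in vehicle (-1.09, SE 0.20) and with AMH 50 ng/mL (-1.30, SE 0.33), and was at -1.60 (SE 0.40, limma adjusted p = 0.0631) with AMH 200 ng/mL, and the stress gene Gadd45a rose by 1.68 (SE 0.18) with AMH 50 and by 1.46 (SE 0.27) with AMH 200 ng/mL.

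In the comparisons of doses no gene of these lists passed. Proliferation genes were below 0 in 16 of 18 with AMH 200 ng/mL against vehicle at 24 h (median -0.13, with 47.5% of all genes below 0) and in 12 of 18 at 12 h (median -0.19, with 59.1%). At 50 ng/mL of AMH they were below 0 in 17 of 18 at 24 h (median -0.14, with 49.1%) and in 15 of 18 at 12 h (median -0.21, with 56.5%). These counts share the vehicle arrays of each time. Some lists of cell markers had larger medians in the same comparisons, with no marker past the threshold. At 24 h 10 of 10 surface epithelium markers were below 0 with AMH 200 (median -0.71) and with AMH 50 ng/mL (-0.69), and at 12 h none was (0.56 and 0.44). Of 8 leukocyte markers, 7 were below 0 at 24 h with AMH 200 (-0.95) and with AMH 50 ng/mL (-0.68). At 12 h 4 were with AMH 200 (0.11) and 5 with AMH 50 ng/mL (-0.16). Of 9 oocyte markers, 9 were below 0 with AMH 50 ng/mL at 24 h (-1.0) and at 12 h (-0.96). With AMH 200 ng/mL 3 of 9 were at 24 h (0.03) and 2 of 9 at 12 h (0.09). Of 8 granulosa markers, 7 were below 0 with AMH 200 ng/mL at 12 h (-0.37) and 3 at 24 h (0.07). With AMH 50 ng/mL 7 were at 24 h (-0.15) and 6 at 12 h (-0.13). Of 7 endothelial markers, 7 were below 0 at 12 h with AMH 200 (-0.54) and 5 with AMH 50 ng/mL (-0.42). At 24 h 2 were at each dose (0.01 and 0.05). Of 9 theca and stroma markers, 1 was below 0 with AMH 50 ng/mL at 24 h (0.38) and 9 at 12 h (-0.56). With AMH 200 ng/mL 7 were at 24 h (-0.10) and 3 at 12 h (0.06). The part of these markers in the dose values was not tested.

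Markers of the cells in these cultures also differed between the times. The summed signal of 8 granulosa markers, Fshr and Foxl2 among them, was 7738 to 8417 in vehicle at 24 h, against 2660 to 5171 at 12 h. Under AMH 50 ng/mL it was 6887 to 9010.0 at 24 h, against 4828 and 4900.3 at 12 h, and with AMH 200 ng/mL 8225 to 8929 at 24 h, against 1472 to 5447 at 12 h. At each dose 7 of 8 were above 0. In vehicle Fshr, the FSH receptor gene, rose by 2.43 (SE 0.45) and Foxl2, a granulosa transcription factor gene, by 1.05 (SE 0.14). Both also rose at each AMH dose, and with AMH 50 ng/mL the steroid enzyme gene Hsd17b1 rose too, by 1.13 (SE 0.24), while Amh itself fell by 1.90 (SE 0.48). Of 9 theca and stroma markers, 9 rose with AMH 50 ng/mL (median 1.75), whereas none passed in vehicle (7 of 9 above 0) or with AMH 200 ng/mL (5 of 9 above 0). Their sum with AMH 50 ng/mL was 8471 to 13403.5 at 24 h, against 3669 to 4399 at 12 h. In vehicle the sum was 7178 to 11710 at 24 h, against 4174 to 13002 at 12 h. The AMH 50 group of 12 h lacked replicate 3. The difference between times in the AMH 50 effect against vehicle was above 0 in 9 of 9 (median 0.90), and none passed.

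The summed signal of 10 oocyte markers varied by pool, from 1256 to 6271 in vehicle at 24 h, against 312 to 8577 at 12 h, and none of 9 tested passed at any dose. Over time 9 of 9 were below 0 with AMH 50 ng/mL (median -1.29), 4 of 9 with AMH 200 ng/mL (median 0.04) and 2 of 9 in vehicle (median 0.19). Leukocyte sums in vehicle were 1138 to 2353 at 24 h, against 1198 to 1698 at 12 h, endothelial sums 804 to 1852 against 1143 to 4514, and surface epithelium sums 4503 to 7979 against 4140.3 to 6766. Of 8 leukocyte markers, 1 was higher and 1 lower past the threshold in vehicle (median 0.43). At each AMH dose 1 was lower past it (median -0.03 with AMH 50 and -0.62 with AMH 200 ng/mL). No endothelial marker passed at any dose (medians -0.78, -0.18 and 0.07 with vehicle, AMH 50 and AMH 200 ng/mL). Of 10 surface epithelium markers, 7 were above 0 in vehicle over time (median 0.49, 1 higher past the threshold), 5 with AMH 50 ng/mL (median 0.07, 3 lower past the threshold) and 2 with AMH 200 ng/mL (median -0.40, 2 lower past the threshold). The keratin genes Krt8 and Krt18 were lower past the threshold at both AMH doses. Krt8 was at -0.90 with AMH 50 and -1.30 with AMH 200 ng/mL, and Krt18 at -0.89 and -1.49. The part of these markers in the time differences of Cdkn1b, Cdkn1c and the proliferation genes was not tested.

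The patterns of single members over the 17 arrays were set against 11237 other genes, as a description without a test, since the arrays share pools and fall into 2 times. Cdkn1b (1434045_at) was most like 2010001A14Rik (r = 0.942), Kcnma1 (0.925) and Col4a5 (0.924). These came to 0.846, 0.588 and 0.552 within the 9 arrays of 24 h, and to 0.632, 0.730 and 0.690 within the 8 of 12 h. Cdkn1a (1424638_at) was most like Pdpn (0.954), Tpm3 (0.954) and Vbp1 (0.953). These came to 0.842, 0.815 and 0.753 within the 9 arrays of 24 h, and to 0.953, 0.964 and 0.947 within the 8 of 12 h. The latter include the AMH 200 array of replicate 3, where Cdkn1a read 2733, and values without it were not computed. Ccnd2 (1416124_at) reached no more than 0.699, with Slc25a4, then Psmg4 (0.688) and Eif4a1 (0.687). Among the members, Cdkn1b and Cdkn1c ran against each other (r = -0.854 over 17 arrays, -0.538 within 24 h and -0.576 within 12 h), but by the other Cdkn1b probe set, 1419497_at, r was -0.777, -0.638 and -0.0423. Cdkn1a and Cdkn1b had r = -0.681 over all 17, but 0.429 within 24 h and -0.383 within 12 h.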

How the data were processed

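RNA from 18 follicle cultures had been hybridised to 1 array each. The deposited signal intensity of each probe set was computed by the authors with MAS5, per the submitters' processing notes (version not given in the sources used here), on a linear scale, with a 2% trimmed mean of 150.0 on every array. Here log2(signal + 16) was taken with no further normalization, and 64 control probe sets were set aside. The 22518 of 45037 others above the 50th percentile of mean log2 signal over all 18 arrays were tested. The annotation gave 1 symbol to 34945, several to 932 and none to 9160.

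Doses were compared with limma 3.58.1 in R 4.3.3 (lmFit, eBayes with an intensity trend) on 17 arrays with the pool as a block, and 7 residual degrees of freedom. Times were compared within a dose, without a block (4 residual degrees of freedom in vehicle and AMH 200 ng/mL, 3 in AMH 50 ng/mL). Same-numbered vehicle arrays of 24 h and 12 h deviated together from their group means (r = 0.318, 0.261 and 0.207), so the blocked vehicle values stand beside the others where they change a call. The labels do not say that numbers tie pools across times. Tests were two-sided, with Benjamini-Hochberg adjustment over all 22518 and a threshold of 0.05. The models were also run on simulated data with independent normal noise, which checked only that added differences came back with the right size and sign. Arrays that stand apart were not simulated.

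The members and lists were chosen with earlier results of these data known. All members are named, most by the tested probe set of highest mean. Exceptions are Cdkn1b, whose time and dose values open with 1419497_at, and AMH 50 values against vehicle of Cdk6 and Cdkn1a. Those open with 1455287_at and 1421679_a_at. Not every probe set is given in each comparison, and Ccnd1, Cdk4 and Cdkn2c have no dose differences beyond the ranges over all 23. List genes are named by smallest unadjusted p, up to 4 a list and comparison. Marker genes were named after their values had been seen. RefSeq promoter windows were of GRCm38.p6. Alternatives changed the block, the value added, the filter, the normalization, the trend, the weights and the arrays. Plots used matplotlib 3.10.9 under python 3.11.15.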

Additional observations from a re-analysis of the deposited data

Results flagged for a closer look

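In 3 of the 23 tested member probe sets the AMH 50 ng/mL effect went one way in all 3 pools of 24 h and the other way in both pools used at 12 h. How many of all tested probe sets did so was not counted, so this number of members has no background to be read against. At the higher dose of AMH no tested member probe set reversed in this way in all pools. For Cdk6 by 1455287_at the difference between the times in the AMH 50 effect was -0.97 (log2, SE 0.35, unadjusted p = 0.0163, limma adjusted p = 0.999), and by 1460291_at it was -0.71 (SE 0.35, unadjusted p = 0.0615, limma adjusted p = 0.999). For Ccnd2 by 1455956_x_at it was 0.31 (SE 0.30, unadjusted p = 0.322, limma adjusted p = 0.999). None passed the test of the difference, and the third Cdk6 probe set did not show the pattern. Of the probe sets under the filter, which were not tested, Ccnd3 1438805_at also went opposite ways, at -0.10, -0.07 and -0.20 in the pools of 24 h and 0.15 and 0.38 in those used at 12 h.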

How the results depend on the processing

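In the comparisons of doses, 0 of 2789 member values under the alternatives passed the threshold (smallest adjusted p = 0.0581), and 288 of these uncalled values changed sign. In the time comparisons 63 of 1014 passed, and no called value changed sign. Over all probe sets, array weights, whose estimate stopped before converging, gave 8 calls at 24 h, against 0 without them, for AMH 200 against vehicle, 1011 for AMH 50 against vehicle and 513 for AMH 200 against AMH 50 ng/mL, and the 24 h arrays alone gave 1 for AMH 50 against vehicle. For all these the member count stayed 0, and the cause was not tested.

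For vehicle over time the calls were 156 with 1 added before log2, 60 with no filter, 132 above the 75th percentile, 778 with array weights, and 622, with 1 member, with pools as a random block. The replicate block, with which the vehicle numbers paired, gave 642 calls and 1 member. With AMH 200 ng/mL over time they were 550 with 1 added, 401 with no filter, 1508 with quantile normalization, 4131, with 4 members, with array weights and 4207 with pools as a random block. Same-numbered AMH 200 arrays had r = 0.105, 0.123 and 0.00585, so numbers were not taken as pairs, and with the replicate block Cdkn1a 1424638_at passed (adjusted p = 0.0455). With AMH 50 ng/mL over time they were 765, with 1 member, with no filter, 986 above the 75th percentile, 646 with pools as a random block, and 0, with 0 members, with all 6 arrays.

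With 1 array or pool left out, calls ranged over 0 to 555 in vehicle over time (members 0 to 1), 0 to 2993 with AMH 200 ng/mL (members 0 to 4) and 867 to 1703 with AMH 50 ng/mL (members 1 to 2). At 12 h they ranged over 0 to 226 for AMH 200 against vehicle, 0 to 4 for AMH 50 against vehicle and 0 to 17 for AMH 200 against AMH 50 ng/mL, and over 0 to 2 for the mean AMH 200 effect and 0 to 3 for the difference of the AMH 50 effect between times; each upper value came without the pool of 12 h replicate 2. In vehicle over time, calls were 1, 0 and 0 without the 24 h array of replicate 1, 2 or 3, and 343, 35 and 555 without that of 12 h. For AMH 200 ng/mL they were 0, 7 and 0 without that of 24 h and 181, 1431 and 2993 without that of 12 h. For AMH 50 ng/mL the lowest counts were those without the 24 h array of replicate 1 (867), replicate 3 (954) or the 12 h array of replicate 2 (1076). Where leaving out an array left 1 array of AMH 50 ng/mL at 12 h, that array was assumed to vary like those of 24 h. The low signals of Cdkn1c and of the 2 untested Ccnd3 probe sets limit what those probe sets can show.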
